A study of Homo sapiens with 6 samples.

Results

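The DUSP and Sprouty feedback genes described here are 10 genes whose proteins dampen MAP kinase signalling. They were taken from the deposited expression table as the rows whose gene symbol is DUSP1, DUSP2, DUSP4, DUSP5, DUSP6, DUSP10, DUSP16, SPRY2, SPRED1 or SPRED2, and all 10 were present among 17911 genes. The rule goes by symbol alone, but these genes were chosen with earlier results of the same data known. RNA was sequenced from HL-60 cells, an established human leukaemia line labelled promyelocyte that carries a mutant NRAS gene. In 3 libraries the cells had been given 10 uM amiodarone, an antiarrhythmic drug, for 24 h. The other 3 libraries are labelled control, and the labels do not say whether these cells received a vehicle. Both groups are the same line with no other named treatment, and nothing in the labels states that each library had its own culture, so p-values cover only the spread among these libraries, which may be technical.

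MAP kinases are switched on by phosphorylation of a threonine and a tyrosine in their activation loop, at the end of a relay that for ERK runs from RAS through RAF and MEK. DUSP proteins of the MAP kinase phosphatase family remove both phosphates, and many of their genes are themselves transcribed in response to the kinases they restrain. Sprouty and Spred proteins act further up, between receptor tyrosine kinases, RAS and RAF, and Spred proteins bring neurofibromin to the membrane, where it turns RAS off. Mutant NRAS in HL-60 cells feeds this relay.

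After amiodarone, transcripts of 5 of the 7 phosphatases were higher, namely DUSP16, DUSP4, DUSP10, DUSP5 and DUSP6, while DUSP1 was lower. SPRED2 was lower and SPRY2 slightly higher. The comparison asks which transcripts differ between the 2 groups. By limma on log2(value + 1), with p-values adjusted over every gene tested (Benjamini-Hochberg), 8 of the 10 had an adjusted p under 0.05, against 78.3% of the 11445 genes tested, so a share of this size is near the background of this comparison. Of the 10, 6 were higher, against 33.5% of all tested genes, and 2 were lower, against 44.8%. The groups did not overlap in 8 of the 10, where 79.3% of all tested genes had groups apart. A called change of at least 1.5-fold on this scale was seen in 3 of the 10 (DUSP4, DUSP10 and DUSP16) and in 21.1% of all tested genes. The median log2 fold change was 0.26 over the 10 genes and -0.06 over all tested genes. With 0.1 in place of 1 added to the values, DUSP1 (log2 fold change -0.75) and DUSP5 (0.65) also passed 1.5-fold. The share of all tested genes past 1.5-fold at that setting was not computed. All 10 passed the filter on low values, which asked for 1 or more in 3 or more libraries, and each was above 1 in all 6.

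**Figure D1:**
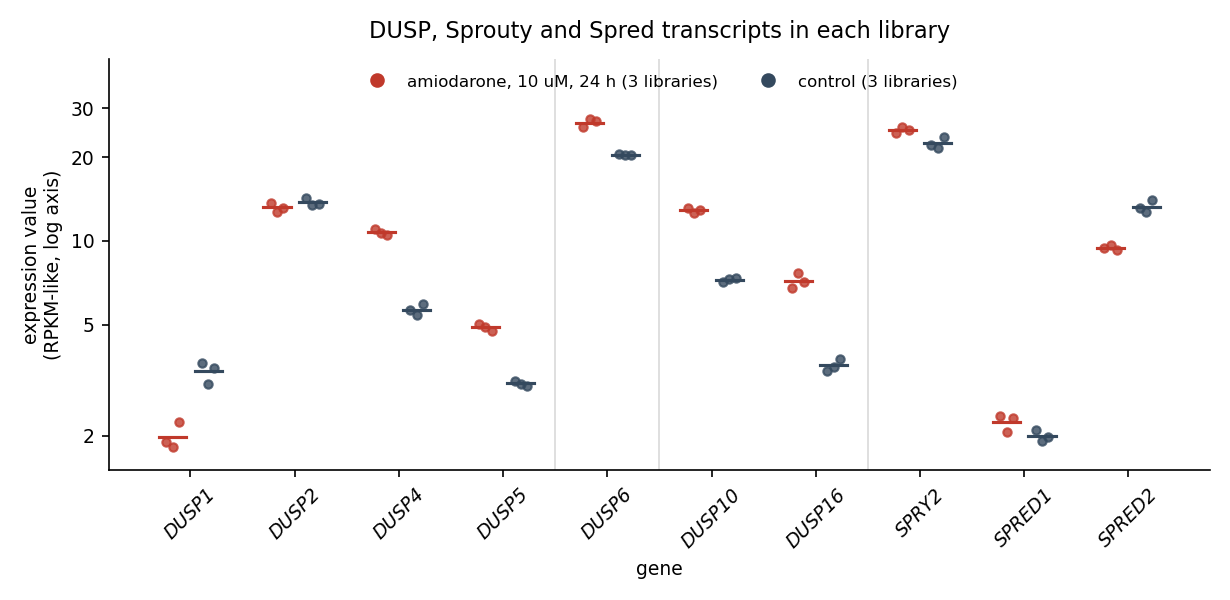
Expression value (RPKM-like, log axis) of each of the 10 genes in each library, with amiodarone libraries in red left of control libraries in dark grey; points are libraries and short lines the means of 3. DUSP4, DUSP5, DUSP6, DUSP10 and DUSP16 sit higher after amiodarone and DUSP1 and SPRED2 lower, with no overlap, while the groups of DUSP2 and SPRED1 overlap.

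The promoters of DUSP1, DUSP6 and DUSP10 are shown as examples of a fall, a smaller rise and a larger rise among the phosphatases. DUSP16, which rose most, is not shown, and its promoter held none of the motifs marked below. The sequences are RefSeq's for GRCh38.p14, 250 bases before the RefSeq gene start, written 5′ to 3′ on the strand of the gene. The gene spans given with the values are those of GENCODE 29, whose starts can differ: the DUSP6 window lies inside the GENCODE gene and the DUSP10 window overlaps its 5′ end. They lie at chr5:172771196-172771445 (DUSP1), chr12:89352502-89352751 (DUSP6) and chr1:221742090-221742339 (DUSP10), all on the minus strand. Capitals mark matches on either strand to a cAMP response element, spelled TGACGTCA, to an E-box, the palindrome that is spelled CACGTG, to a TATA box, searched as the letters TATAAA, or to the CCAAT box of the name.
DUSP1: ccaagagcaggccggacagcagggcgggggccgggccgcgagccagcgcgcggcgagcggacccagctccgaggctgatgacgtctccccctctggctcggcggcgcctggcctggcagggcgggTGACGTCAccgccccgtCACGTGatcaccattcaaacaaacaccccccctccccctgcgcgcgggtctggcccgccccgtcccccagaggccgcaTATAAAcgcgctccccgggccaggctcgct
DUSP6: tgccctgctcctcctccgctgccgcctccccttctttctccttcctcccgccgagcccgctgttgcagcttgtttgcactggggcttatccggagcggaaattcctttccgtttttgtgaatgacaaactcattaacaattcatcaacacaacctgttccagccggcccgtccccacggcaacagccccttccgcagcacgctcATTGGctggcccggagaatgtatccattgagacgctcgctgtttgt
DUSP10: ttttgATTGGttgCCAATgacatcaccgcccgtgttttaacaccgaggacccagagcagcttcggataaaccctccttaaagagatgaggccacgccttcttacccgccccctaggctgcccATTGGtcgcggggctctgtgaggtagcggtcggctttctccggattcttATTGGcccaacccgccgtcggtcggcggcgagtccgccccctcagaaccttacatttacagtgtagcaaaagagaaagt

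In this window DUSP1 held the cAMP response element, found in 1.77% of 27305 promoters of the same length, an E-box (6.49%) and a TATA box (11.1%). DUSP10 held 4 CCAAT boxes, where 33.0% of promoters held at least 1 and 0.93% held 4 or more, and DUSP6 held 1. No CCAAT box was found in the other members with a RefSeq promoter, DUSP16 with the largest rise among them. The CCAAT box was added to the search after the sequences were read, so its shares are not a test. Both strands were searched, also for AP-1 sites (TGANTCA, in 6.6% of promoters), ETS sites (CCGGAAG, 8.82%), ATF4 composite sites (TGATGNAA, 3.19%), NF-kB sites (0.546%), CArG boxes (1.14%) and Sp1 sites (GGGCGG, 42.3%, left in lower case). No pair of the capitalised motifs overlaps in the windows shown. A RefSeq promoter was at hand for 8 of the 10 genes, all but DUSP4 and DUSP5, which were both called higher. Among the 8, DUSP2 also held an E-box, and none held an AP-1, ETS, ATF4, NF-kB or CArG match. Sp1 matches were present in DUSP1, DUSP2, DUSP10, DUSP16, SPRY2 and SPRED1. A match describes these letters only.

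The nuclear phosphatases that are induced by growth factors and stress did not move as a group. DUSP1, an immediate early gene whose protein acts mostly on p38 and JNK, had values of 1.9, 1.82 and 2.23 in amiodarone libraries, against 3.65, 3.07 and 3.49 in control libraries. Every amiodarone library was below every control library. The mean was 1.98 ± 0.217 after amiodarone and 3.40 ± 0.30 in controls (SD, n = 3 each), a ratio of 0.583 and a log2 fold change of -0.56, SE 0.077 (limma, adjusted p = 4.51e-05). DUSP1 had the lowest mean of the 10 genes after amiodarone, and its values rest on about 61 to 132 reads per library, fewer than for any other member. DUSP1 spans bases 172768090 to 172771195 of chromosome 5 and is read from the minus strand; this and the other gene coordinates are those of GENCODE 29 for GRCh38.

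DUSP4, a nuclear phosphatase of ERK and JNK, had values of 11.08, 10.65 and 10.47 after amiodarone, against 5.65, 5.41 and 5.93 in controls. The lowest amiodarone library was thus well above the highest control library. Its mean of 10.7 ± 0.313 after amiodarone and 5.66 ± 0.26 in controls gave a ratio of 1.90 and a log2 fold change of 0.82 ± 0.05 (SE; limma, adjusted p = 6.46e-08). The size of this change exceeded that of 90.2% of tested genes. The gene spans bases 29333064 to 29350668 of chromosome 8 (minus strand).

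DUSP5 encodes a nuclear phosphatase that is selective for ERK and holds it in the nucleus. Its values were 5.04, 4.92 and 4.75 in amiodarone libraries and 3.15, 3.07 and 3.02 in control libraries, again without overlap. The ratio of means was 1.59 and the log2 fold change 0.53 (95% interval 0.41 to 0.65; limma, adjusted p = 4.46e-06). DUSP5 spans bases 110497838 to 110511544 of chromosome 10 (plus strand).

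DUSP2, whose protein acts on ERK and p38 in blood cells, did not pass the test. Its values were 13.72, 12.73 and 13.12 after amiodarone, against 14.28, 13.46 and 13.59 in controls, and the groups overlapped. The log2 fold change was -0.06 with a 95% interval of -0.16 to 0.04 (limma, adjusted p = 0.237). With the libraries scaled to equal sums it was -0.14 and called (limma, adjusted p = 0.0112), and with median-of-ratios scaling it was 0.008. DUSP2 spans bases 96143166 to 96145440 of chromosome 2 (minus strand).

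DUSP6, the cytoplasmic phosphatase that is selective for ERK and whose transcription is known to follow ERK activity, was the most abundant of the 7 phosphatases in both groups. It had values of 25.56, 27.38 and 26.91 in amiodarone libraries and 20.51, 20.35 and 20.41 in control libraries. The amiodarone libraries were all higher, and they also varied more (SD 0.945 after amiodarone and 0.081 in controls). The ratio of means was 1.30 and the log2 fold change 0.37, SE 0.036 (limma, adjusted p = 3.41e-06). DUSP6 spans bases 89347232 to 89353271 of chromosome 12 (minus strand), and 40.5% of its exonic bases are covered by the annotated gene AC024909.2 on the opposite strand. Reads of such a pair cannot be assigned with certainty, because whether counting used strand is not given in the sources used here. It was the only one of the 10 genes whose exons overlapped another annotated gene.

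DUSP10 and DUSP16, whose proteins are known to prefer p38 and JNK over ERK, were both higher. DUSP10 had values of 13.13, 12.59 and 12.9 after amiodarone, against 7.11, 7.31 and 7.35 in controls. These groups were far apart relative to their spread (SD 0.271 after amiodarone and 0.129 in controls). The ratio of means was 1.77 and the log2 fold change 0.75, SE 0.043 (limma, adjusted p = 3.92e-08). DUSP10 spans bases 221701424 to 221742176 of chromosome 1 (minus strand).

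DUSP16, a phosphatase of JNK and p38 that moves between nucleus and cytoplasm, had the largest change of the 10. Its values were 6.77, 7.65 and 7.12 in amiodarone libraries and 3.41, 3.54 and 3.77 in control libraries. The ratio of means was 2.01 and the log2 fold change 0.84 with a 95% interval of 0.71 to 0.97 (limma, adjusted p = 2.37e-07), larger than in 91.0% of tested genes. No amiodarone library came near the control range. The intervals of DUSP4, DUSP10 and DUSP16 overlap, so their order by size of change is not settled. DUSP16 spans bases 12474210 to 12562383 of chromosome 12 (minus strand).

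**Figure D2:**
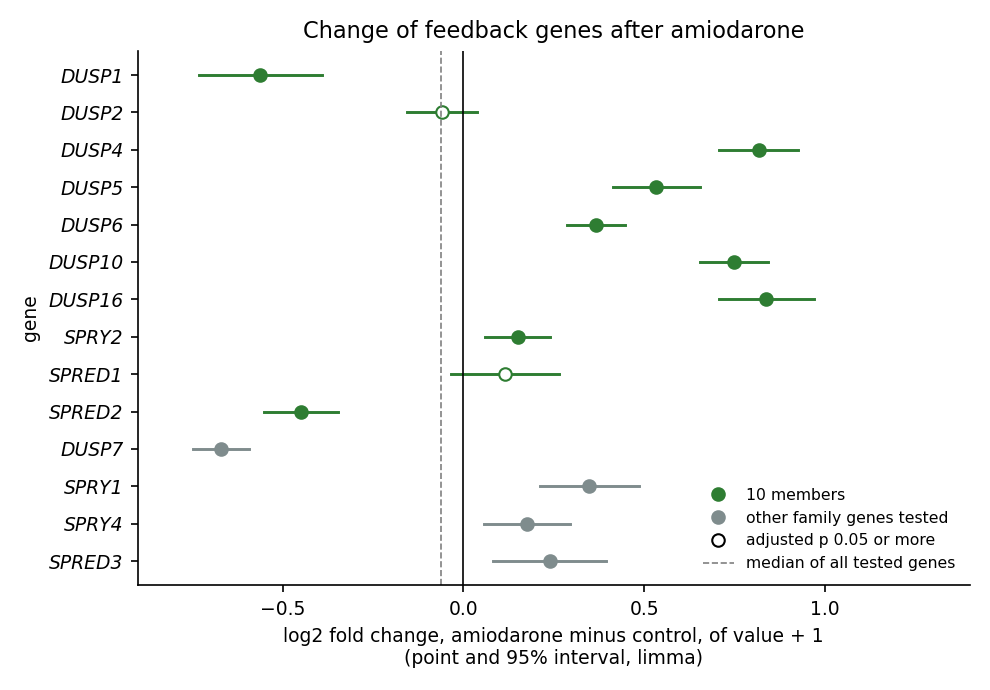
Log2 fold change of value + 1, amiodarone minus control, with its 95% interval from limma, for the 10 members (green) and the 4 other tested family genes (grey); open points have an adjusted p of 0.05 or more. DUSP16 (0.84), DUSP4 (0.82) and DUSP10 (0.75) lie furthest to the right, and DUSP7 (-0.67), DUSP1 (-0.56) and SPRED2 (-0.45) furthest to the left.

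Among the members, the inhibitors that act further up the relay changed little or fell. Their relatives outside the members, SPRY1, SPRY4 and SPRED3, were called higher, at ratios of 1.31, 1.15 and 1.36. SPRY2, which acts on signalling adaptors below receptor kinases, had values of 24.48, 25.61 and 24.99 after amiodarone, against 22.08, 21.62 and 23.69 in controls. The groups were narrowly apart, with a ratio of means of 1.11 and a log2 fold change of 0.15 (95% interval 0.06 to 0.24; limma, adjusted p = 0.00565). This call ended with scaling to equal sums, where the log2 fold change was 0.06 (limma, adjusted p = 0.195). SPRY2 spans bases 80335976 to 80340951 of chromosome 13 (minus strand).

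SPRED2 was the Spred gene with the higher level and the one that fell. Its values were 9.45, 9.64 and 9.29 in amiodarone libraries and 13.13, 12.74 and 14.02 in control libraries. Every amiodarone library was below every control library, and the ratio of means was 0.711, with a log2 fold change of -0.45, SE 0.046 (limma, adjusted p = 4.65e-06). SPRED2 spans bases 65310851 to 65432637 of chromosome 2 (minus strand).

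SPRED1, the other neurofibromin partner among the members, had values of 2.35, 2.06 and 2.32 after amiodarone, against 2.1, 1.91 and 1.97 in controls. The groups overlapped, and the log2 fold change of 0.12 had a 95% interval of -0.03 to 0.26 (limma, adjusted p = 0.137). Median-of-ratios scaling gave 0.16 and an adjusted p of 0.0428 with limma. SPRED1 spans bases 38252326 to 38357249 of chromosome 15 (plus strand).

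The order of the 10 levels, which are values per length, also shifted. After amiodarone DUSP6 (26.6) and SPRY2 (25.03) led with overlapping libraries, followed by DUSP2 (13.2) and DUSP10 (12.9), which overlapped each other too. Then came DUSP4 (10.7), SPRED2 (9.46), DUSP16 (7.18) and DUSP5 (4.90), each clear of its neighbours, and SPRED1 (2.24) and DUSP1 (1.98) at the end, which overlapped. In controls SPRY2 (22.5) was above DUSP6 (20.4) without overlap, and DUSP2 (13.8) overlapped SPRED2 (13.3). DUSP10 (7.26) and DUSP4 (5.66) followed, each apart from its neighbours. The control libraries of DUSP16 (3.57), DUSP1 (3.40) and DUSP5 (3.08) formed an overlapping run above SPRED1 (1.99).

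Summed over the 7 phosphatases among the members, the values came to 77.2, 77.7 and 77.5 in amiodarone libraries. In control libraries they came to 57.8, 56.2 and 57.6, and the ratio of means, amiodarone over control, was 1.36. This sum and the shares below leave out phosphatases outside the members. Among these, DUSP7 was lower, at 13.48 after amiodarone and 22.03 in controls. The sum of the 3 Sprouty and Spred genes was 36.7 ± 0.527 after amiodarone and 37.8 ± 1.75 in controls (SD, n = 3 each), and these groups overlapped. Within the phosphatase sum, DUSP10 and DUSP16 together made up 25.9% ± 0.14 after amiodarone and 18.9% ± 0.63 in controls. The share of DUSP6 was 34.4% ± 1.1 after amiodarone and 35.7% ± 0.42 in controls, that of DUSP4 was 13.9% ± 0.44 after amiodarone and 9.90% ± 0.35 in controls, and that of DUSP1 was 2.56% ± 0.28 after amiodarone and 5.95% ± 0.44 in controls. DUSP2 took 17.0% ± 0.70 after amiodarone and 24.1% ± 0.57 in controls, a lower share of a larger sum at a value that did not pass the test. These are shares of transcripts and not of enzyme.

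**Figure D3:**
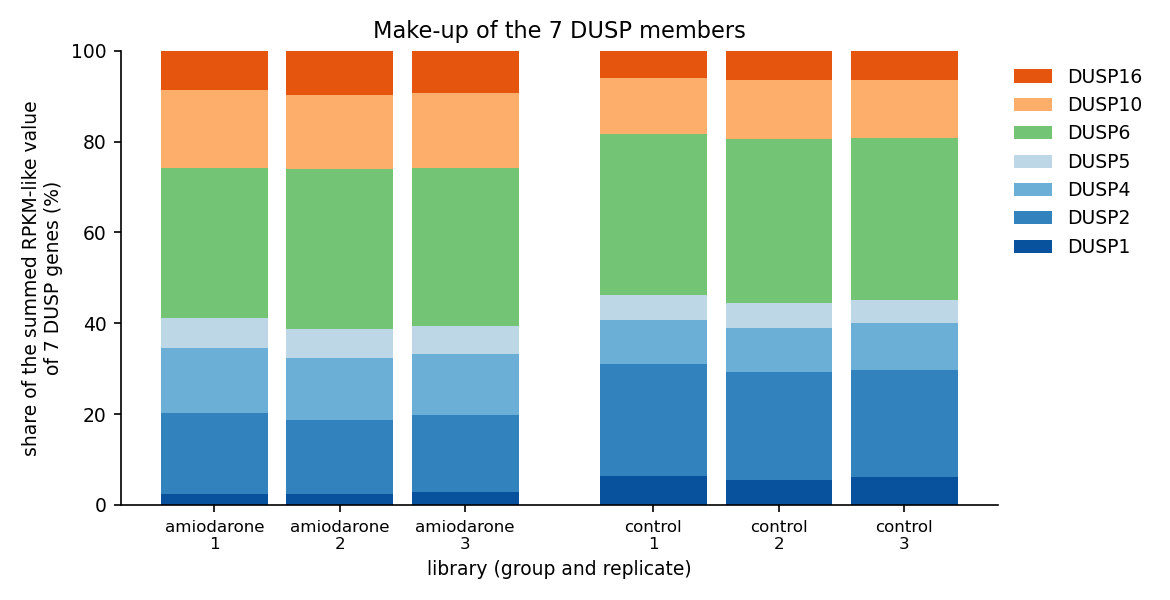
Share of the summed RPKM-like value of the 7 DUSP members (%) held by each gene in each library, amiodarone libraries on the left and control libraries on the right. The orange bands of DUSP10 and DUSP16 together fill 25.8% to 26.0% of each amiodarone bar and 18.2% to 19.3% of each control bar, and the darkest band, DUSP1, is thinner after amiodarone.

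Ratios of 2 genes within a library do not depend on how libraries are scaled. The ratio of DUSP4 to DUSP1 was 5.83, 5.85 and 4.70 in amiodarone libraries and 1.55, 1.76 and 1.70 in control libraries. DUSP10 was nearly level with DUSP2 after amiodarone, at a ratio of 0.957, 0.989 and 0.983, against 0.498, 0.543 and 0.541 in controls. The ratio of DUSP10 to DUSP6 averaged 0.484 ± 0.027 after amiodarone and 0.355 ± 0.0075 in controls, and it was higher in every amiodarone library. The ratio of SPRY2 to SPRED2 was 2.65 ± 0.051 after amiodarone and 1.69 ± 0.0077 in controls. The groups were apart in all 9 ratios computed. Each ratio had an exact two-sided permutation p of 0.1 (also after adjustment over the 9), the smallest that 3 against 3 libraries allow. This set was chosen after the values were seen, so neither the count nor a p-value adds evidence beyond the single genes. How many other pairs of genes lie apart was not computed.

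Near relatives outside the 10 members moved in both directions. DUSP7, the other cytoplasmic ERK phosphatase with a substantial level, had values of 13.42, 13.67 and 13.34 after amiodarone, against 22, 21.76 and 22.34 in controls. All its amiodarone libraries were lower, with a log2 fold change of -0.67, SE 0.035 (limma, adjusted p = 2.12e-08). The ratio of DUSP6 to DUSP7 was accordingly 1.97 ± 0.061 after amiodarone and 0.927 ± 0.012 in controls, with DUSP6 above DUSP7 after amiodarone and below it in controls. SPRY1 (8.13 ± 0.16 after amiodarone and 6.19 ± 0.59 in controls), SPRY4 (6.67 ± 0.127 and, in controls, 5.79 ± 0.35) and SPRED3 (1.38 ± 0.0917 and, in controls, 1.02 ± 0.0603) were higher, with adjusted p-values of 3.53e-04, 0.011 and 0.00943 by limma. SPRY4 was no longer called once libraries were scaled to equal sums (log2 fold change 0.10; limma, adjusted p = 0.116). DUSP8, DUSP9 and SPRY3 were below the filter and not tested, at 0.72 ± 0.0781, 0.313 ± 0.11 and at most 0.01 after amiodarone, against 0.887 ± 0.085, 0.76 ± 0.07 and at most 0.01 in controls. Of the 7 genes in this list, 4 were thus tested, 3 were higher and 1 was lower. Among all tested genes 33.5% were higher and 44.8% lower.

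Smaller and atypical DUSP genes and their relatives numbered 11, and most have other or additional substrates. Of these, 3 were higher, 5 lower and 3 not called (median log2 fold change 0.02). Among all tested genes 33.5% were higher and 44.8% lower. DUSP23 (33.3 ± 1.15 after amiodarone and 55.7 ± 1.80 in controls) and DUSP3 (16.6 ± 0.876 after amiodarone and 23.3 ± 0.495 in controls) fell most clearly, with adjusted p-values of 1.32e-08 and 2e-06 by limma. DUSP11 had a ratio of 0.829 and DUSP14 a ratio of 0.82, and both were called lower. PTPN7, a tyrosine phosphatase of MAP kinases in blood cells and far more abundant than any member, was 117.89, 113.85 and 118.33 in amiodarone libraries and 118.51, 120.71 and 120.23 in control libraries. These groups were narrowly apart and the log2 fold change of -0.04 did not pass the test (95% interval -0.09 to 0.02; limma, adjusted p = 0.19). With scaling to equal sums it was -0.13 (limma, adjusted p = 6.09e-04). PTPRR, a related phosphatase, was listed at 0.02 or less throughout.

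Genes of the relay that these proteins restrain moved in both directions. Of 20 genes from adaptors through RAS, RAF and MEK to ERK and its effector kinases, 8 were higher, 7 lower and 5 not called (median log2 fold change 0.003), beside 33.5% higher and 44.8% lower among all tested genes. Scaling to equal sums gave 5 higher and 9 lower, and median-of-ratios scaling 9 higher and 4 lower. NRAS, named here because HL-60 carries a mutant copy and not by the rule for named genes, was 24.0 ± 0.677 after amiodarone and 24.2 ± 1.05 in controls (log2 fold change -0.009; limma, adjusted p = 0.848). BRAF, a RAF kinase, rose to 8.87 ± 0.596 after amiodarone, against 5.64 ± 0.145 in controls, and SHOC2, a scaffold that helps to activate RAF, to 19.4 ± 0.235, against 13.6 ± 0.382 in controls. The genes for the MEK kinases parted, with MAP2K1 at 9.84 ± 0.249 after amiodarone and 13.3 ± 0.629 in controls, and MAP2K2 at 148 ± 2.69 after amiodarone and 126 ± 3.5 in controls. Adjusted p-values of these 4 genes ranged from 4.96e-07 to 1.51e-05 with limma.

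Of 18 tested genes of the p38 and JNK relays, the substrates of DUSP10 and DUSP16 among them, 9 were higher, 7 lower and 2 not called, with a median of 0.05. The 9 became 4 with scaling to equal sums and 4 at a minimum value of 5, and the 7 became 4 with median-of-ratios scaling; among all tested genes 33.5% were higher and 44.8% lower. MAPK13, a p38 isoform, was higher (3.33 ± 0.11 after amiodarone and 1.86 ± 0.108 in controls) and MAPK11, another p38 isoform, was lower (3.82 ± 0.11 after amiodarone and 5.83 ± 0.508 in controls). MAP3K7, a kinase that relays cytokine signals to p38 and JNK, rose to 19.4 ± 0.275 after amiodarone, against 16.1 ± 0.441 in controls. MAPKAPK2, a kinase activated by p38, fell to 52.5 ± 0.533 after amiodarone, against 60.0 ± 0.286 in controls. The adjusted p-values of these 4 lay between 5.22e-06 and 6.77e-05 with limma.

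Genes commonly read as transcriptional output of ERK did not move in 1 direction. Of 16 tested, 7 were higher, 7 lower and 2 not called, beside 33.5% higher and 44.8% lower among all tested genes. Their median log2 fold change was -0.06, equal to that of all tested genes to this precision. IER3, a stress-induced survival gene, was 70.7 ± 2.01 after amiodarone and 12.2 ± 0.357 in controls, and EGR2, a zinc finger factor, was 8.25 ± 0.473 after amiodarone and 1.94 ± 0.0513 in controls. MYC fell to 158 ± 4.61 after amiodarone, against 269 ± 4.71 in controls, and the ETS factor ETV4 to 36.6 ± 0.686, against 64.1 ± 1.51 in controls. The log2 fold changes of IER3, EGR2, MYC and ETV4 were 2.44, 1.65, -0.76 and -0.79, with adjusted p-values between 1.93e-12 and 1.9e-09 (limma). Named outside the rule, PHLDA1 rose 2.26-fold, CCND1 fell to 6.90 ± 0.114 after amiodarone, against 9.70 ± 0.278 in controls, and EGR1, a classic immediate early target of ERK, was not called (4.07 ± 0.249 after amiodarone and 4.27 ± 0.214 in controls; limma, adjusted p = 0.412).

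**Figure D4:**
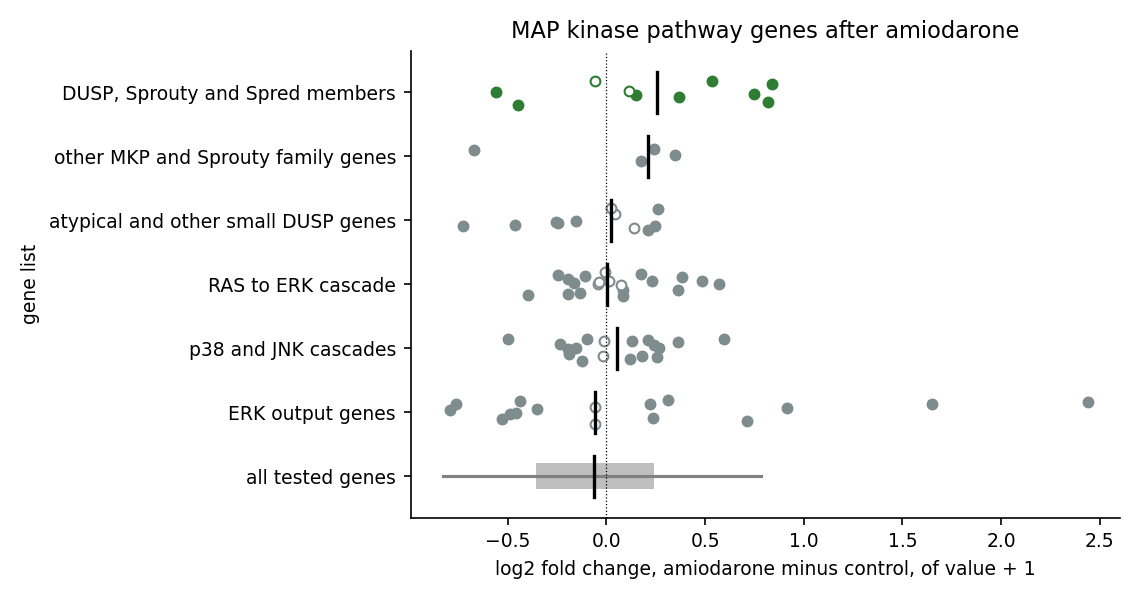
Log2 fold change of value + 1, amiodarone minus control, of each tested gene (points; open where the adjusted p is 0.05 or more) in the 10 members and 5 related lists, with the median of each list as a black line; the bottom row gives all tested genes as the range of the middle 90% (line), the middle 50% (box) and the median. The members have a median of 0.26, the RAS to ERK list 0.003, the p38 and JNK list 0.05 and the ERK output list -0.06.

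Estimated from the steps between low values, the depth was about 16500000 to 16900000 reads or fragments in amiodarone libraries and 17900000 to 18500000 in control libraries. Across tested genes, correlations of log2 values were 0.9975 to 0.9982 within a group and 0.959 to 0.96 between groups. Primary granule and myeloid genes that mark promyelocytes were abundant, with 7 of 7 in the table. Their summed value, mostly MPO, was 3075 to 3146 in amiodarone libraries and 6953 to 7077 in control libraries. All but CD33 were called lower, at ratios from 0.227 (PRTN3) to 0.701 (CEBPE). CD33 was at 95.55 ± 3.55 after amiodarone and 91.66 ± 2.12 in controls, with overlapping groups (limma, adjusted p = 0.115). Of the monocyte and macrophage markers reported here, CD14 (0.793 ± 0.164 after amiodarone and 0.347 ± 0.0907 in controls) and CD163 (0.787 ± 0.0379 after amiodarone and 0.05 in each control) had higher means after amiodarone. CSF1R was at 0.557 ± 0.0551 after amiodarone and 1.09 ± 0.165 in controls, and FCGR3A was below 0.3 in every library. These 4 were below the filter and not tested, and their sum was 2.11 to 2.65 after amiodarone and 1.46 to 1.9 in controls. Markers of T cells (3 of 3 in the table) summed to at most 3.0 and those of erythroid (2 of 3) and epithelial cells (3 of 3) to at most 2.33 in any library. The B cell gene CD79A was at 8.99 to 9.7 after amiodarone and 10.7 to 11.5 in controls. The promyelocyte and monocyte sums move with the groups and so with every member that rose or fell, and their part in those results was not tested. In bulk RNA, fewer cells of a type and less RNA per cell cannot be told apart.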

How the data were processed

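RNA sequencing of 3 amiodarone and 3 control libraries of HL-60 cells was used. Tools named, per the submitters' processing notes, are STAR 2.5.3a, featureCounts and fastp 0.23.4, with the build GRCh38.p12 and no roles or order, and a stranded mRNA kit was used per the labels' protocols. How counting treated strand and multiply matching reads, and with which annotation, is not stated. The deposited values carry no unit per the file headers. The authors' values behave like RPKM: they are not whole, their sums differ between libraries, and low values of short genes with 1 transcript (GENCODE 29 lengths) tend to fall on steps, with 50.0% to 61.3% within 0.15 of a whole read, where chance gives 30% for a fixed step and the step was chosen to raise this share. Depth and read numbers are therefore estimates, whole reads were not recovered, and no count model was used.

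Values were used as deposited. Testing covered 11445 genes that reached 1 in 3 or more libraries, with limma 3.58.1 in R 4.3.3 (lmFit, eBayes with trend) on log2(value + 1), which understates changes of low genes, with Benjamini-Hochberg adjustment (residual degrees of freedom 4, prior 6.59). Ratios are of group means of deposited values, and means are ± SD over 3 libraries. No pair of libraries was a duplicate, as at most 0.751% of tested genes had identical values. The procedure was tested on simulated data. Members, lists and alternatives were chosen with earlier results of these data known. Genes named are the members, the related MKP and Sprouty genes, and of each other list up to 4 called genes with the smallest adjusted p, or the 2 with the highest mean where none was called. Alternatives were 2 scalings, a pseudocount of 0.1, no filter, a minimum value of 5, no variance trend, the replicate number as a block and leaving out each library. Promoter sequences came from RefSeq. Some cell type markers are not reported here.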

Additional observations from a re-analysis of the deposited data

How the results depend on the processing

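DUSP1, DUSP4, DUSP5, DUSP6, DUSP10, DUSP16 and SPRED2 kept their direction and call under every alternative in which they were tested; a minimum value of 5 removed DUSP1, DUSP5 and SPRED1 from the test, which left 1 member called lower. DUSP2 was 0.008 with median-of-ratios scaling. Members called higher numbered 5 with scaling to equal sums, which ended the call of SPRY2, and 7 with median-of-ratios scaling, which added SPRED1; members called lower numbered 3 with equal sums, which added DUSP2. The median log2 fold change of all tested genes was -0.14 with equal sums and 0.001 with median of ratios. Leaving out any 1 library kept 6 members higher and 2 lower. Those fits tested 11156 to 11281 genes and called 8346 to 8487 of them, or 74.3% to 76.1%. Small changes turned with scaling: PTPN7 was 0.033, NRAS 0.059 and EGR1 0.001 with median of ratios, and NRAS ranged from -0.043 to 0.015 when each library was left out. The relay lists shifted likewise, with 5 RAS to ERK and 4 p38 and JNK genes higher with equal sums, and 4 of each lower with median of ratios. Without a filter, DUSP9 was also called lower. Same-numbered libraries did not deviate together (correlations across genes of -0.155, -0.018 and -0.023). With 3 libraries per group this check cannot exclude a pairing, which the labels do not state. With the replicate number as a block 6 members were higher and 2 lower and 8770 tested genes were called. DUSP1 rests on the fewest reads of the members and has the largest standard error among them, 0.077. A count model on recovered reads was not run.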
